A study of Mus musculus with 12 samples.

Results

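The transcription factors examined were Hnf4a, Hnf4g, Cdx1, Cdx2, Gata4, Gata6, Klf4 and Klf5, which direct the fate and the absorptive programme of the intestinal epithelium. They were taken by gene symbol from the table of all genes measured. This gave 8 genes of 15855, and 8 of the 8 were among the 14462 genes kept after a filter on low counts.

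RNA was sequenced from live EpCAM+7AAD- cells sorted from the whole small intestine of C57BL6/J mice 24 h after surgery. The adhesion protein EpCAM marks the epithelium, and 7AAD is a dye that enters dead cells. One group of 7 samples came from mice with sham surgery and the other group of 5 from mice with permanent middle cerebral artery occlusion (pMCAO), a model of stroke in which the artery stays blocked. By the study's methods the animals were young adults and were males where nothing else is said, and the labels name no engineered allele in either group. The mice of both groups had anaesthesia and neck surgery in common, so the comparison is of the arterial occlusion over the sham operation. The study counts a further pMCAO sample, which was not analysed here. Each sample was labelled as a biological replicate, and the p-values below measure the spread between these samples.

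HNF4, CDX, GATA and KLF factors bind DNA at promoters and enhancers of genes for nutrient uptake, lipid handling and the brush border. Cells divide in the crypts, move up the villus and mature there into absorptive enterocytes or secretory cells, and the factors act at different steps of that path. The paired members of each family share a type of DNA-binding domain. Those of the HNF4, CDX and GATA families can in part replace each other in the intestine.

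At 24 h after surgery none of the factors differed between pMCAO and sham by the test used. The levels in pMCAO and sham samples overlapped for each of them. Neither is particular to the factors, since 0 of all 14462 genes passed that test and the groups did not overlap for 0.505% of genes. With a further pMCAO sample and a correction for the day of tissue collection, the study did report differing genes. Klf4 was the most abundant of them per length of transcript, followed by Hnf4a and Hnf4g, and the remaining factors were several-fold lower. On group alone the largest fitted difference was that of Cdx1, with a log2 fold change of 0.57 ± 0.33 (SE) in pMCAO over sham, and its 95% interval spanned 0.915-fold to 2.41-fold. A fit with a term for the set of libraries gave it 0.34, and one on the later libraries alone 0.12.

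Before these values are given one by one, the sequence just upstream of the factors' own genes is shown, because members of these families are known to bind near one another's genes. RefSeq promoter windows on GRCm38.p6 were matched by symbol for 3 of the 8 factors, with 2 start sites for Hnf4a, and the bases before each start site that lie in no annotated exon are printed 5′ to 3′ on the strand of the gene. Capitals mark matches, on either strand, to GGGTGG or GGGCGG (KLF) and to TTTAT (CDX). The letters AGATAA or TGATAA for GATA factors, and CAAAG as the core of an HNF4 site, were searched in the same way. The bases printed for the upstream start of Hnf4a are chr2:163506607-163506807 and those for its downstream start chr2:163546943-163547154, both on the plus strand. Those for Klf4 are chr4:55532476-55532725 and those for Cdx2 chr5:147307271-147307499, both on the minus strand. The stretch for the upstream start of Hnf4a ends 49 bases before the start site, and that for Cdx2 ends 21 bases before it. The stretches for the downstream start of Hnf4a and for Klf4 reach the start site.
Hnf4a upstream start: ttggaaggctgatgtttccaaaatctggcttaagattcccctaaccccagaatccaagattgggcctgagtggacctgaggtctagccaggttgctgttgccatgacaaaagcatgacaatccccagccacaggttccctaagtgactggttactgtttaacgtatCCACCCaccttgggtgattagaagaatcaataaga
Hnf4a downstream start: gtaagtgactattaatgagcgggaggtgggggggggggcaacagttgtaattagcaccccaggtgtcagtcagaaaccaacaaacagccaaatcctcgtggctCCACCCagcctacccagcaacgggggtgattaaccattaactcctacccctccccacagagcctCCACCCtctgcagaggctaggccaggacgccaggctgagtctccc
Klf4: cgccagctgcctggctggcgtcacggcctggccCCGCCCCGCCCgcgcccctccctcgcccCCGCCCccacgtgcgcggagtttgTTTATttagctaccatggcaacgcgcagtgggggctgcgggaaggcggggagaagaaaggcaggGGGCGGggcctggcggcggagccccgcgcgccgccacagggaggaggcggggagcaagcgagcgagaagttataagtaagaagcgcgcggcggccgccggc
Cdx2: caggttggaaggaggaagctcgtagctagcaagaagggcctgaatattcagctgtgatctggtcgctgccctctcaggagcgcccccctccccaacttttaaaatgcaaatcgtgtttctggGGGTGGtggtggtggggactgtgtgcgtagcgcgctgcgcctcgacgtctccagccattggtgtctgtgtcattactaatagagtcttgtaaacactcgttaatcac

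KLF letters stood in each of the windows, with 4 matches before Klf4, 2 of which share 1 base, 2 before the downstream start of Hnf4a, and 1 each in the others. Such letters are common, and 48.8% of 32851 promoter windows of the length used for Klf4 held them. A CDX match was found before Klf4 alone among these windows, and 37.3% of windows of its length held one. No GATA or HNF4 letters were found in the printed bases, and the bases left out were not searched. A match describes the letters and is no evidence of binding, and the gene counts used here do not separate transcripts of the 2 Hnf4a starts.

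Sequencing depth ran from 7418730 to 31925579 counts per sample, and mitochondrially encoded genes took 24.2% to 62% of them. The factors were well covered, with between 23 counts (Cdx1 in 1 sham sample) and 19907 counts (Hnf4a in 1 pMCAO sample) per gene and sample. Levels are given as CPM, counts relative to the library total, scaled by TMM, a method that sets libraries to a common level by the bulk of their genes. The library numbers in the sample titles ran from 58 to 61 for 3 sham samples and pMCAO replicate 1, called early here, and from 62 to 72 for 4 sham and 4 pMCAO samples, called later. The first principal component of all genes held 40.5% of the variance and separated these sets without overlap. What the numbers stand for is not stated, and the sets were read from the data, so a fit with a term for the set and a fit on the later libraries alone are given beside the fit on group alone. The sorted cells expressed Epcam at a mean of 1674 CPM in sham and 1267 CPM in pMCAO, a level difference that did not pass the test, and 1 of 10 markers of stroma, muscle and endothelium was in the table, at no more than 5.25 CPM.

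**Figure D1:**
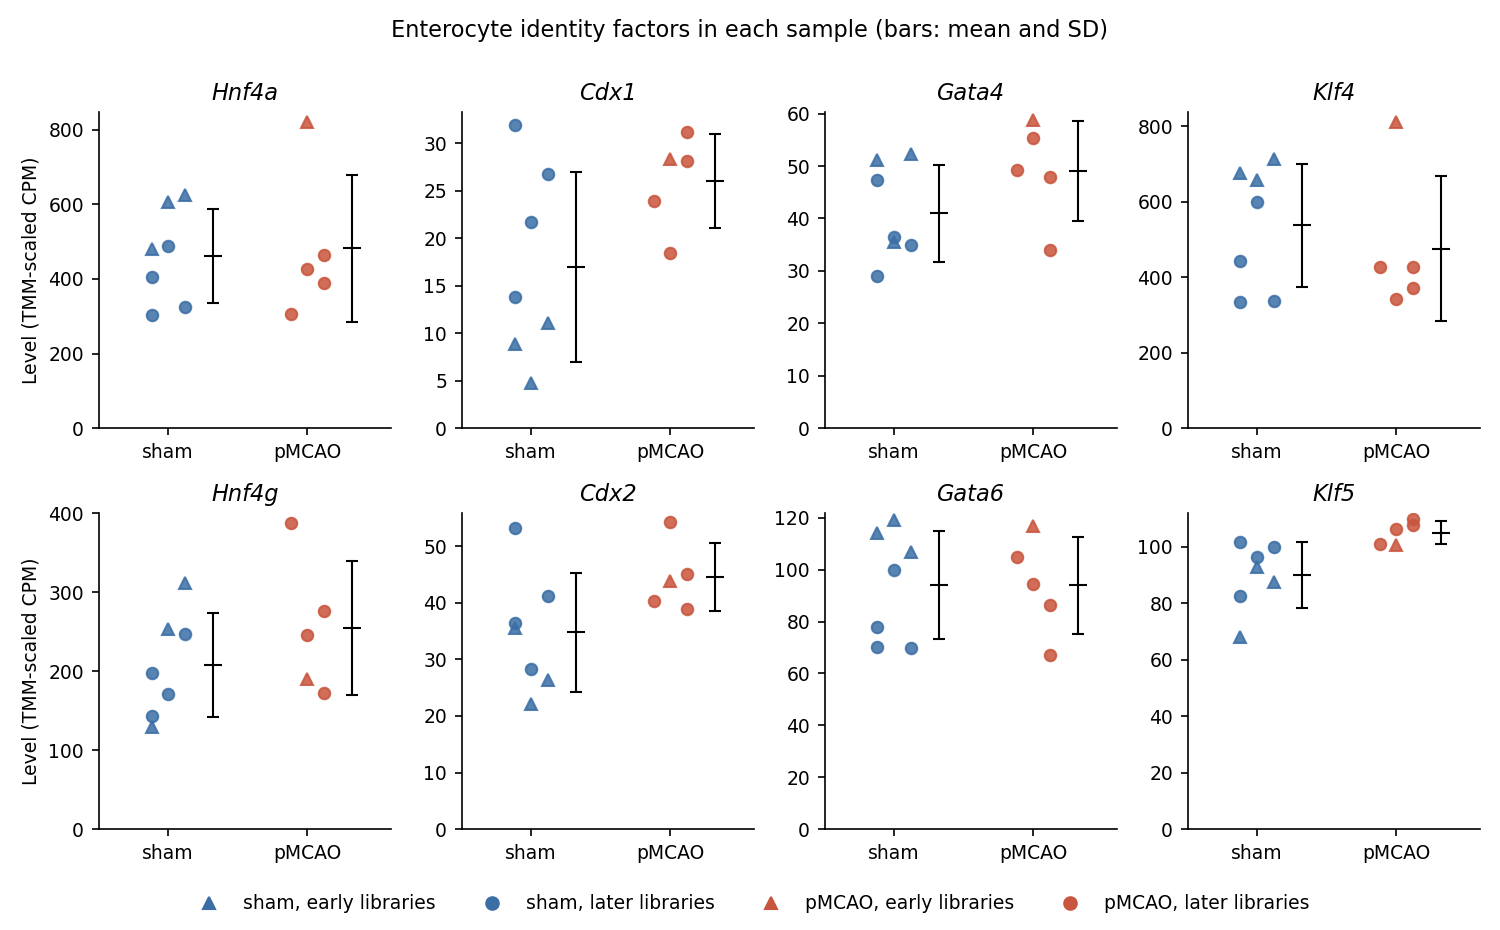
Level of each factor in TMM-scaled CPM (vertical axes, from 0, each with its own range) in 7 sham and 5 pMCAO samples, with triangles for early and circles for later libraries and bars for the mean and SD of each group. The groups overlap in each panel, pMCAO samples of Klf5 lie closest together, from 100.4 to 109.8 CPM, and early and later sham samples stand apart for Cdx1, Gata6 and Klf4.

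Hnf4a and Hnf4g encode nuclear receptors that sustain the enterocyte programme of lipid and nutrient absorption in the mature villus. Hnf4a (ENSMUSG00000017950, chr2:163506808-163572910 on the plus strand of GRCm38) was at 302.1 CPM in the lowest, 479.6 in the median and 624.9 in the highest sham sample. In pMCAO replicates 1 to 5 its level was 820.0, 465.3, 307.2, 425.4 and 390.2 CPM. Replicate 1 was above each sham sample and the other 4 pMCAO samples lay within the sham range. Means (± SD) were 461.5 ± 126.2 CPM for the 7 sham samples and 481.7 ± 197.9 CPM for the 5 pMCAO samples. The log2 fold change was 0.031 ± 0.26 (SE; 95% interval -0.51 to 0.58; limma-voom, Benjamini-Hochberg adjusted p = 0.98). With the library set term it was 0.20 ± 0.16. The sign was not stable, since the value was -0.18 without pMCAO replicate 1 and also below 0 without sham replicate 4, 6 or 7.

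For Hnf4g (ENSMUSG00000017688, chr3:3508030-3658052, plus strand), sham levels spanned 129.2 to 312.0 CPM with a median of 197.5. The pMCAO levels were 190.1, 172.5, 387.3, 246.4 and 276.8 CPM in replicates 1 to 5. Replicate 3 exceeded the sham samples and the rest fell among them. From a sham mean of 207.6 ± 66.1 CPM (SD, n = 7) to a pMCAO mean of 254.6 ± 85.3 CPM (SD, n = 5) this was a log2 fold change of 0.29 ± 0.25 (SE; 95% interval -0.25 to 0.83; adjusted p = 0.76, limma-voom). In the later libraries alone the log2 fold change was 0.49 ± 0.24 (SE; unadjusted p = 0.062; adjusted p = 0.67, limma-voom), the largest of the 8 factors there, and still short of the threshold.

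Cdx1 and Cdx2 encode homeodomain proteins that give the gut epithelium its intestinal identity, and Cdx2 is required for it. Cdx1 (ENSMUSG00000024619, chr18:61018862-61036199, minus strand) was the most variable of the factors. Its level in sham was 4.77 CPM in the lowest sample, 13.8 in the median and 31.9 in the highest, a 6.69-fold range. The pMCAO replicates 1 to 5 had 28.4, 31.2, 24, 18.5 and 28.1 CPM. They lay together in the upper part of the sham range, each above 4 or more of the 7 sham samples. Its sham mean was 17 ± 10 CPM (SD, n = 7) against 26 ± 4.94 CPM (SD, n = 5) after pMCAO. The log2 fold change of 0.57 ± 0.33 (SE; 95% interval -0.13 to 1.27; adjusted p = 0.65, limma-voom) dropped to 0.34 ± 0.26 with the library set term and to 0.12 ± 0.25 in the later libraries alone.

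Cdx2 (ENSMUSG00000029646, chr5:147300805-147307270, minus strand) was at 22.2, 35.6 and 53.2 CPM in the lowest, median and highest sham sample, and at 43.9, 38.9, 40.2, 54.3 and 45.1 CPM in pMCAO replicates 1 to 5. Each pMCAO sample was above 5 or more of the 7 sham samples, and the groups overlapped because sham replicates 4 and 6 were high. Mean levels were 34.8 ± 10.5 CPM (SD, n = 7) and 44.5 ± 6.02 CPM (SD, n = 5), with a log2 fold change of 0.34 ± 0.20 (SE; 95% interval -0.079 to 0.77; adjusted p = 0.65, limma-voom). With the library set term the log2 fold change was 0.27 ± 0.18.

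Gata4 and Gata6 encode zinc-finger factors, and Gata4 is best known for holding the jejunal programme in the upper small intestine apart from the ileal one. Sham levels of Gata4 (ENSMUSG00000021944, chr14:63198922-63271692, minus strand) ran from 29 to 52.4 CPM around a median of 36.5. Its pMCAO levels were 58.8, 33.9, 49.3, 55.3 and 47.9 CPM. Replicates 1 and 4 were above the sham range and replicate 2 was among the low sham samples. From 40.9 ± 9.17 CPM (SD, n = 7) in sham to 49.1 ± 9.53 CPM (SD, n = 5) in pMCAO, the log2 fold change was 0.29 ± 0.20 (SE; 95% interval -0.13 to 0.71; adjusted p = 0.69, limma-voom). It was 0.34 ± 0.17 with the library set term (unadjusted p = 0.065; adjusted p = 0.52, limma-voom) and 0.36 ± 0.21 in the later libraries.

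Gata6 (ENSMUSG00000005836, chr18:11052064-11085635, plus strand), which is expressed along the whole small intestine and acts in proliferating crypt cells, had the smallest difference on group alone. With the library set term Klf4 had a smaller one, and in the later libraries Hnf4a, Klf4 and Cdx1 did. Its sham levels were 69.9 CPM at the lowest, 99.8 at the median and 119.2 at the highest, against 116.8, 67, 104.8, 94.6 and 86.3 CPM in the pMCAO replicates. The groups covered nearly the same range, with means of 94.1 ± 21 CPM (SD, n = 7) and 93.9 ± 18.9 CPM (SD, n = 5). The log2 fold change was 0.018 ± 0.20 (SE; 95% interval -0.40 to 0.44; adjusted p = 0.98, limma-voom), and its sign was negative under edgeR (-0.0019) and DESeq2 (-0.020). Over 93 bases, 1.4% of its exons, it overlaps 1010001N08Rik on the opposite strand, and reads there cannot be assigned to one or the other where counting ignores strand.

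Klf4 and Klf5 encode zinc-finger factors with opposite places in the epithelium, Klf4 in differentiated and goblet cells of the villus and Klf5 in the proliferating crypt. Klf4 (ENSMUSG00000003032, chr4:55527143-55532466, minus strand) was at 334 CPM in the lowest, 597.9 in the median and 711.6 in the highest sham sample. The pMCAO levels were 810.7, 428, 426.4, 342.5 and 370.6 CPM in replicates 1 to 5. Replicate 1 was the highest of the 12 samples and the other 4 were below the sham median. Klf4 was the only factor with a fitted value below 0, a log2 fold change of -0.20 ± 0.27 (SE; 95% interval -0.76 to 0.37; adjusted p = 0.86, limma-voom), and that sign turned with the library set term (0.0033 ± 0.16) and when counts were scaled to library size alone (0.14). Its means were 536.8 ± 162.2 CPM (SD, n = 7) and 475.6 ± 190.9 CPM (SD, n = 5).

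The level of Klf5 (ENSMUSG00000005148, chr14:99298691-99315036, plus strand) was steady. In sham it was 68.2 CPM at the lowest, 92.7 at the median and 101.6 at the highest, and in pMCAO it was 100.4, 107.6, 100.8, 106.3 and 109.8 CPM. Each pMCAO sample lay above 6 or 7 of the 7 sham samples, and sham replicate 7 alone reached into the pMCAO range. The sham mean of 89.8 ± 11.7 CPM (SD, n = 7) compared with 105 ± 4.2 CPM (SD, n = 5) after pMCAO, and the log2 fold change was 0.24 ± 0.15 (SE; 95% interval -0.088 to 0.56; adjusted p = 0.68, limma-voom). On the linear scale the upper end of that interval is 1.47-fold. Over the 12 samples the coefficient of variation (SD over mean) of its level was 12.4%, and 0.415% of the genes kept varied less, while the median gene had 47.7%.

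Across the factors, 0 of 8 passed both thresholds of a call (adjusted p not above 0.05, and a log2 fold change of 1 or more in size), against a background of 0% over the 14462 genes (0 called by limma-voom). At an unadjusted p under 0.05, limma-voom passed 1219 genes, or 8.43%, and 0 of the 8 factors. By edgeR 0 genes were called (0%) and 930 passed the unadjusted limit (6.43%), and by DESeq2 70 were called (0.484%) and 1153 passed (7.97%). With the library set term limma-voom called 16 genes (0.111%) and 1451 passed the unadjusted limit (10%). In the later libraries alone 0 of 15355 genes were called (0%), and none of these settings called a factor. The fitted log2 fold change was above 0 for 7 of the 8 factors on group alone, where 55.2% of all genes were above 0, for 8 with the library set term (52% of all genes) and for 7 in the later libraries (52.7%). Klf4 was the exception, and the values of Hnf4a, Gata6 and Klf4 changed sign between settings. No factor had groups that did not overlap, which was so for 0.505% of all genes. In bulk RNA of sorted cells, a lower level can come from fewer cells of a type or from less RNA per cell, and these cannot be told apart here.

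**Figure D2:**
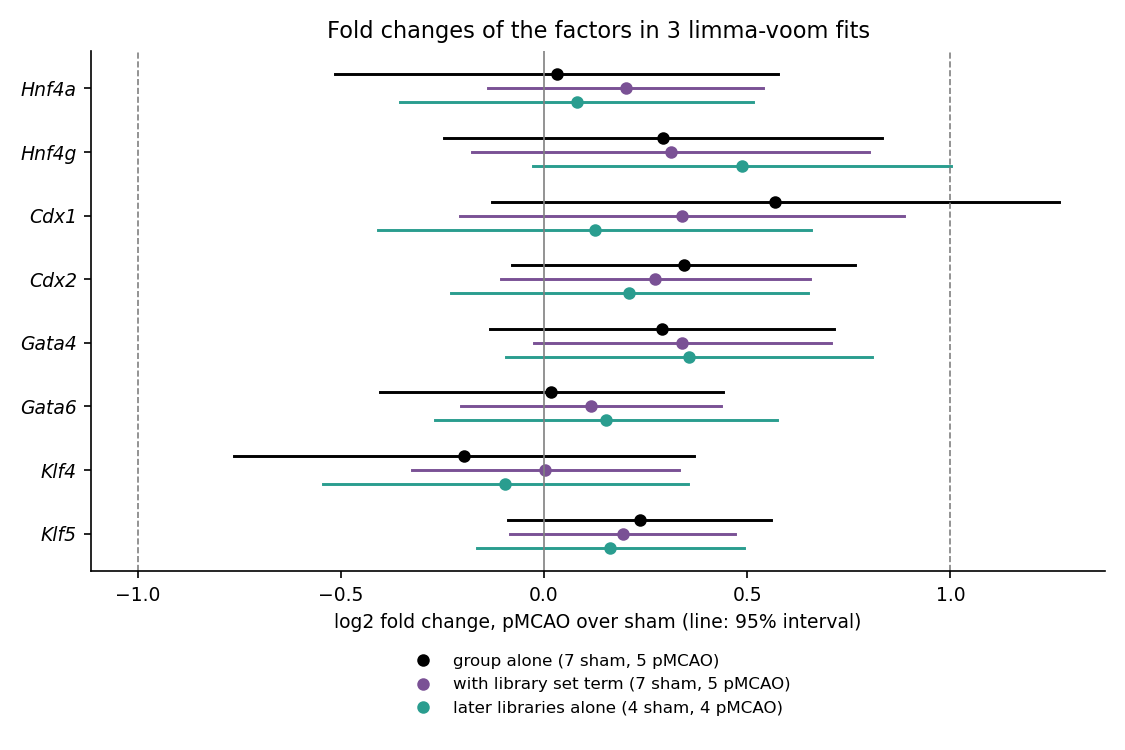
Log2 fold change of pMCAO over sham (horizontal axis) for each factor in 3 limma-voom fits, with points for the estimate, lines for the 95% interval and dashed lines at -1 and 1, the size required for a call. Each interval includes 0, and those of Cdx1 on group alone (upper end 1.27) and of Hnf4g in the later libraries reach past 1.

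Set side by side per kilobase of exon, the levels of the factors fell into a high and a low class. Over the 12 samples Klf4 averaged 167.7 CPM per kb, Hnf4a 97.3 and Hnf4g 86.4, and below them stood Klf5 at 18.5, Cdx2 at 17.2, Gata6 at 14.4, Cdx1 at 11.9 and Gata4 at 11.4. Klf4 was above Hnf4a in 12 of 12 samples and Hnf4g was above Klf5 in 12 of 12, by 4.49-fold on average. The other neighbours in this order were not separated beyond the spread of samples, since Hnf4a exceeded Hnf4g in 7 of 12, Klf5 exceeded Cdx2, Cdx2 exceeded Gata6 and Gata6 exceeded Cdx1 in 8 of 12 each, and Cdx1 exceeded Gata4 in 7 of 12. The median gene was at 2.16 CPM per kb, and the lowest of the factors was still above 84.7% of the 14462 genes kept. Genes without a known length were counted there as not below it.

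The balance within each family was compared as the log2 ratio of length-scaled counts in each library, which does not depend on how libraries are scaled to each other. With 4 pairs tested by an exact permutation of the group labels, none differed between pMCAO and sham. Hnf4a over Hnf4g, the enterocyte receptors, had a mean log2 ratio of 0.29 ± 0.53 in sham (SD, n = 7) against 0.022 ± 0.93 after pMCAO (SD, n = 5), a difference of -0.27 (exact two-sided permutation p = 0.54, adjusted p = 0.54), and of -0.10 within library sets (exact p = 0.90, adjusted p = 0.90). It ranged from 0.432 to 2.35 on the linear scale in pMCAO alone, so which receptor was higher per length of exon changed from sample to sample. That order depends on the exon lengths used, 4828 bases for Hnf4a and 2630 for Hnf4g. Cdx1 over Cdx2 had -0.86 ± 0.84 in sham and -0.42 ± 0.46 in pMCAO, a difference of 0.44 (exact permutation p = 0.31, adjusted p = 0.41), and in the later libraries alone the difference was -0.040.

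Gata4 over Gata6 was the tightest ratio in pMCAO. It lay at -0.20 ± 0.12 there and at -0.46 ± 0.33 in sham, a difference of 0.26 (exact permutation p = 0.13, adjusted p = 0.41). Permuted within library sets the difference was 0.23 (exact p = 0.20, adjusted p = 0.62). Klf4 over Klf5, the villus over the crypt factor, was 3.30 ± 0.61 in sham, a 9.83-fold excess of Klf4, and 2.88 ± 0.53 in pMCAO, a 7.34-fold excess. That difference of -0.42 (exact permutation p = 0.23, adjusted p = 0.41) became -0.19 within library sets (exact p = 0.32, adjusted p = 0.62).

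**Figure D3:**
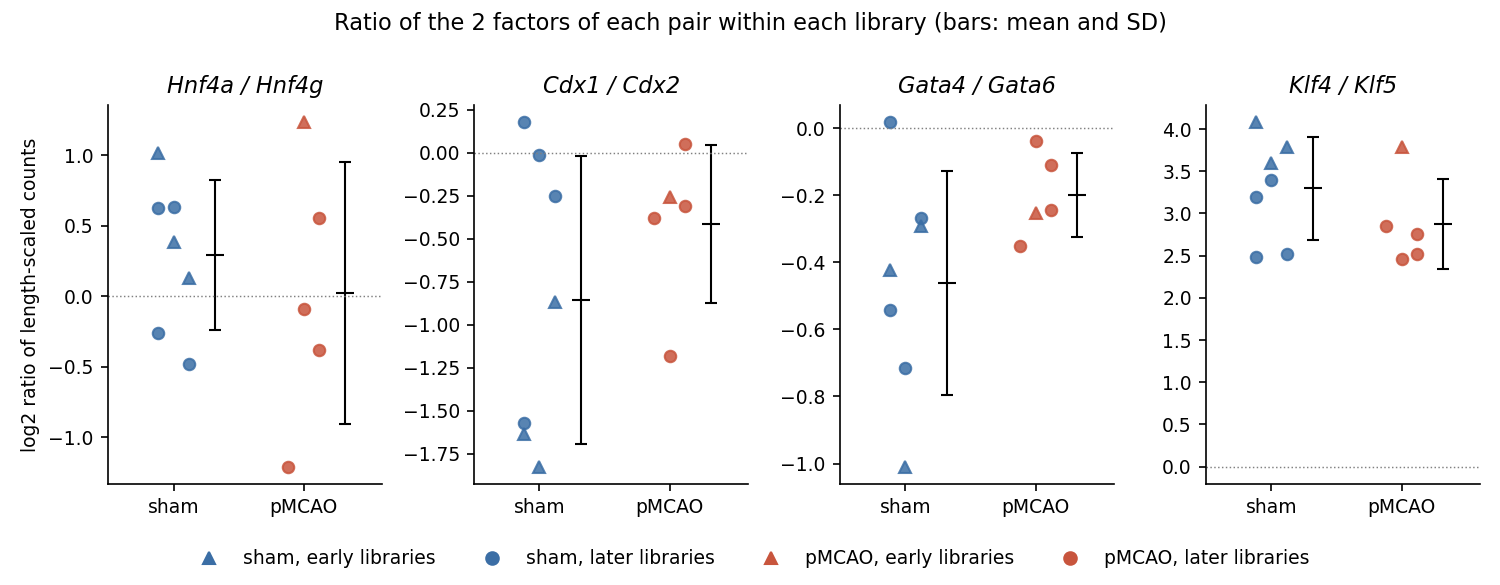
Log2 ratio of length-scaled counts for the paired factors in each library (vertical axes, each with its own range and a dotted line at 0), with triangles for early and circles for later libraries and bars for the mean and SD. The pMCAO and sham samples overlap for the 4 pairs, and the Klf4 over Klf5 ratio of the 4 early libraries, 12.1 to 16.9 on the linear scale, lies above that of the 8 later ones, 5.5 to 10.6.

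Early and later sham samples overlapped for 5 of the 8 factors and stood apart for Cdx1, Klf4 and Gata6. Sham samples of the later set had more Cdx1 than those of the early set, 13.8 to 31.9 CPM against 4.77 to 11.1, a 2.87-fold difference of the mean log2 levels, whereas Klf4 (334 to 597.9 CPM against 657.5 to 711.6) and Gata6 (69.9 to 99.8 CPM against 106.9 to 119.2) were lower. The sets also did not overlap for 27.4% of all genes, so 3 of 8 is no result about the factors. As later minus early differences of the mean log2 level in sham, Klf4 had -0.71, Hnf4a -0.60, Gata6 -0.53, Gata4 -0.33, Hnf4g -0.22, Klf5 0.21, Cdx2 0.49 and Cdx1 1.52, where the median of all genes was 0.22. These values describe the sets and were not tested.

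Several sums of cell type markers differed between the sets, and the mitochondrially encoded share of counts was 46.3% to 62% in early and 24.2% to 48.5% in later libraries. The summed level of 6 goblet cell markers was 4129 to 8114 CPM in early and 20570 to 55100 CPM in later libraries, and that of 5 enteroendocrine markers was 171.4 to 294.9 against 1132 to 2443 CPM. The 4 tuft cell markers summed to 16 to 40.8 CPM in early and 137.7 to 656.7 CPM in later libraries, and the 6 of 7 crypt stem and cycling markers in the table summed to 13.3 to 39.2 against 53.5 to 212.9 CPM. The sum of the 5 epithelial markers went the other way, 4010 to 5240 against 2177 to 3869 CPM. Epcam and Krt8 weigh most in it, at sham means of 1674 and 1172 CPM, and single markers can differ from the sum. The sum of villus enterocyte markers was also higher in early libraries, with overlap, 25150 to 42380 against 10070 to 29470 CPM. The sums of Paneth cell, proximal and distal enterocyte markers overlapped between the sets, and the 6 leukocyte markers summed to 31.9 to 101.2 against 86.8 to 480.3 CPM. Between the surgery groups these sums overlapped, for goblet cells from 4129 to 49700 CPM in sham and 7297 to 55100 CPM in pMCAO. The part of cell composition in the levels of the factors was not tested.

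The single early pMCAO sample, replicate 1, was above the 3 early sham samples for Hnf4a, Cdx1, Cdx2, Gata4, Klf4 and Klf5, above 2 of them for Gata6 and above 1 for Hnf4g. Its log2 level minus the early sham mean was largest for Cdx1, at 1.85, followed by Cdx2 at 0.67 and Hnf4a at 0.53. Among the later libraries, with 4 samples a group, the corresponding differences were 0.15 for Cdx1, 0.19 for Cdx2 and 0.072 for Hnf4a. The median of all genes was 0.074 for the early and 0.012 for the later difference. How many of all genes lay above the 3 early sham samples was not counted, so this order is no result about the factors. The early contrast rests on 1 pMCAO library, so the difference between the sets was not tested.

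Other factors of the same families were examined from a list of 28 genes, of which 19 were in the table and tested. None was called, 1 was higher and 0 lower at an unadjusted p under 0.05, and their median log2 fold change was 0.20, where all genes had 0.060 (with the library set term, 0.067 and 0.019). Over all genes 4.66% were higher and 3.77% lower at that limit. The gene with the smallest p was Klf12, a repressor of the KLF family, at 0.51 ± 0.602 CPM in sham (SD, 7 samples) and 1.46 ± 0.805 after pMCAO (SD, 5 samples), with a log2 fold change of 2.07 ± 0.75 (adjusted p = 0.49, limma-voom) at a level of few counts. With the library set term it was 1.61 ± 0.68. Klf13 had 0.49 ± 0.25 and Foxa3, a forkhead factor of goblet and enteroendocrine cells, 1.20 ± 0.66 (adjusted p = 0.61 and 0.63, limma-voom), and with the library set term 0.49 ± 0.24 and 0.57 ± 0.34.

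Of the other factors of absorptive cells, 11 of 11 were tested and 0 called, with 1 higher and 1 lower at an unadjusted p under 0.05 and a median log2 fold change of 0.42. Over all genes 4.66% were higher and 3.77% lower at that limit, and the median was 0.060. With the library set term 3 were higher and 1 lower, where 10% of all genes passed in either direction. The median of the list was then 0.39, and that of all genes 0.019. Vdr, the vitamin D receptor, was at 127.8 ± 29.3 CPM in sham and 183.5 ± 28.1 CPM in pMCAO, with a log2 fold change of 0.56 ± 0.20 (unadjusted p = 0.012, adjusted p = 0.47, limma-voom). Its lowest pMCAO sample, 150.3 CPM, was below its highest sham sample, 168.4 CPM. Hes1, a Notch target that favours the absorptive fate, was at 9.47 ± 4 CPM in sham and 3.95 ± 1.30 CPM in pMCAO, a log2 fold change of -0.89 ± 0.39 (unadjusted p = 0.037, adjusted p = 0.57, limma-voom). Maf, a factor of the villus enterocyte, had 0.56 ± 0.27 (adjusted p = 0.60). With the library set term the values were 0.54 ± 0.18 for Vdr, -0.84 ± 0.38 for Hes1 and 0.55 ± 0.26 for Maf.

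Factors of crypt and secretory cells showed larger fitted values in low genes. Of the 10 in the list 8 were tested, 0 were called and 2 were higher at an unadjusted p under 0.05, with a median log2 fold change of 0.57 that dropped to 0.17 with the library set term. Among all genes 4.66% were higher at that limit, and the median was 0.060 (0.019 with the library set term). Myc, a driver of crypt proliferation, was at 0.979 ± 0.907 CPM in sham and 2.94 ± 0.905 CPM in pMCAO (log2 fold change 2.01 ± 0.70, adjusted p = 0.47, limma-voom). Gfi1, a factor of secretory precursors, was at 1.01 ± 1.64 and 3.11 ± 1.85 CPM (2.76 ± 0.97, adjusted p = 0.47). Spdef, which matures goblet cells, had 0.77 ± 0.53 (adjusted p = 0.70). With the library set term the values were 1.24 ± 0.47 for Myc, 1.83 ± 0.58 for Gfi1 and 0.35 ± 0.29 for Spdef. The goblet and crypt marker sums that differ between the library sets are given above, and their part in these values was not tested.

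Known target genes of the factors were all in the table, 19 of 19. None was called, 5 were higher and 0 lower at an unadjusted p under 0.05, against 4.66% and 3.77% of all genes, and the median log2 fold change was 0.22 (0.29 with the library set term, where 6 were higher at the unadjusted limit, beside 5.43% of all genes). Sis, the brush border sucrase-isomaltase and a classical CDX2 target, had a sham level of 1391 ± 550.5 CPM (SD, n = 7) and a pMCAO level of 2979 ± 1331 CPM (SD, n = 5). Its lowest pMCAO sample, at 1882 CPM, was below the highest sham sample, at 2389 CPM, and the log2 fold change was 1.14 ± 0.32 (adjusted p = 0.32, limma-voom), or 0.91 ± 0.21 with the library set term (adjusted p = 0.098). Slc5a1, the sodium-glucose cotransporter, was at 462.0 ± 142.0 CPM and 883.6 ± 375.1 CPM (0.92 ± 0.26, adjusted p = 0.34). For comparison, the log2 fold change of Cdx2 itself was 0.34 ± 0.20 and that of Hnf4a 0.031 ± 0.26, and none of these passed the test.

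**Figure D4:**
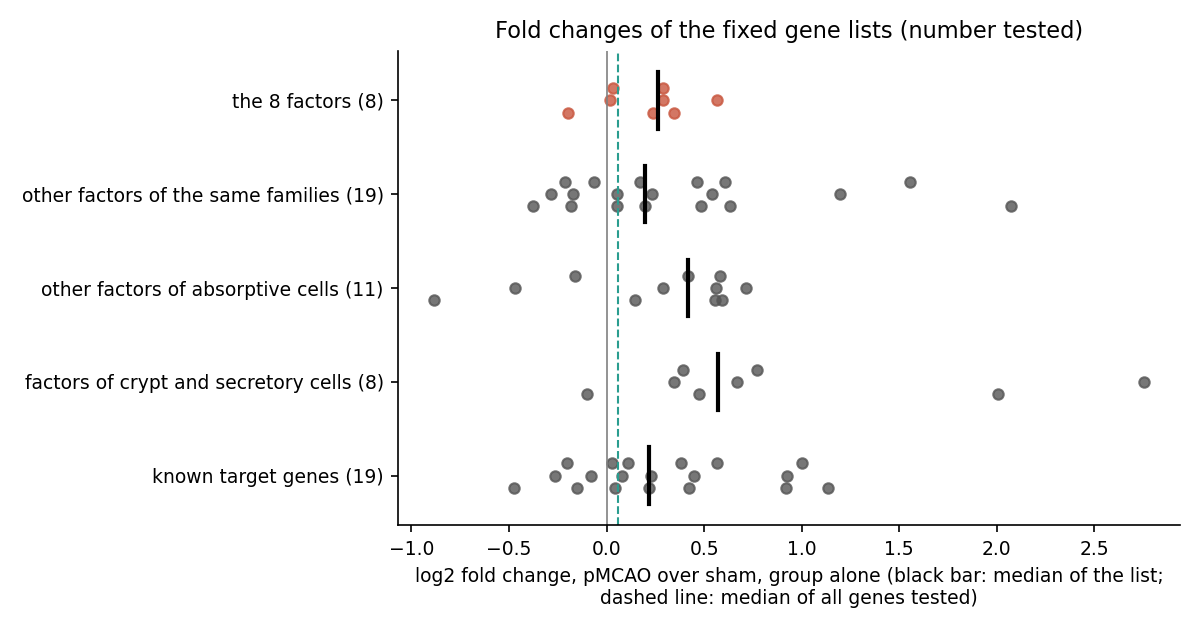
Log2 fold change of pMCAO over sham on group alone (horizontal axis) for each tested gene of the factors and of 4 lists, with a black bar for the median of each list and a dashed line for the median of all genes, 0.060. The 8 factors lie between -0.20 and 0.57, and the genes past 2 are Klf12, Myc and Gfi1, which are expressed at few CPM.

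The genes whose pattern over the 12 samples was closest to each factor were found by Pearson's r of log2 CPM after the mean of each library set was subtracted, taking the top 2 of all genes kept. For Hnf4a these were Il4ra (r = 0.92) and Mesdc1 (0.88), for Hnf4g Abcg8 (0.89), a sterol transporter, and Styx (0.86), for Cdx1 Gm13611 (0.95) and Ptprn2 (0.95), and for Cdx2 Clpp (0.93) and Sept9 (0.93). For Gata4 they were Mul1 (0.92) and Fam73b (0.91), for Gata6 Sgk1 (0.91) and Cyp3a13 (0.89), for Klf4 Krtap2-4 (0.91) and Osbpl10 (0.91), and for Klf5 Nmrk1 (0.93) and RP23-245J24.1 (0.93). These are the extremes of 14462 genes over 12 samples that share library and depth, and they are given as a description. None of the factors was among the closest genes of another. The highest such r between factors was 0.72 for Cdx2 and Gata4, then 0.61 for Hnf4a and Klf4, and within families it was -0.21 for Hnf4a and Hnf4g, 0.32 for Cdx1 and Cdx2, 0.50 for Gata4 and Gata6 and -0.11 for Klf4 and Klf5.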

How the data were processed

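Live EpCAM+ cells of the small intestine were profiled by bulk RNA sequencing in 7 sham and 5 pMCAO samples. According to the study's methods, the authors depleted ribosomal RNA by cleavage, aligned reads to GRCm38 with STAR, assigned them with featureCounts and tested groups with limma-voom in Degust, corrected for the day of tissue collection. Whether counting used strand is not given in the sources used here. The deposited table held whole-number counts per gene, which were used for each result. The deposited CPM columns were not used. The deposited log2 columns (fold change and average expression) and the deposited p-value columns (p and FDR) hold the authors' own comparison and were not used either. Sample columns that matched no sample numbered 0.

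Counts were filtered with filterByExpr (minimum count 10; 1393 genes removed), scaled by TMM and fitted with limma-voom on group alone (limma 3.58.1, edgeR 4.0.16, R 4.3.3). P-values were adjusted by Benjamini-Hochberg over all genes kept, and genes were called at an adjusted p no higher than 0.05 with a log2 fold change of 1 or more in either direction, the thresholds of the study. No label gives the day of collection, which could therefore not be a term. Alternatives were a term for library set, 4 library blocks whose limits were carried from an earlier analysis of these data, the later libraries alone, the replicate number as a block, edgeR's quasi-likelihood test, DESeq2 1.42.0, other scalings and filters, sample quality weights and leaving out each sample. Family ratios, with 0.5 counts added, were compared by two-sided exact permutation. Its smallest possible p is 0.00126 over all 12 samples and 0.00357 within library sets. Levels per kb used the union of exons in GENCODE vM21 (GRCm38). The fit was also run on simulated data that held a group effect but no library set effect, and no result here rests on it.

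The factors and the gene lists were chosen with earlier results of these data known. Named genes were the 8 factors, any gene called in a list or else up to 3 with the smallest unadjusted p, and the 2 genes closest to each factor. One gene chosen by this rule is not reported here. Epcam and the genes of the factor, target and marker lists called under the replicate block were named besides, after their values were seen. Depth was 7418730 to 31925579 counts per sample.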

Additional observations from a re-analysis of the deposited data

Results flagged for a closer look

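Klf4 in pMCAO replicate 1 stood apart from the rest of its group, with a log2 CPM of 9.66 against 8.42 to 8.74 in the other 4 samples, a gap of 0.741 of the group's whole range. It is the pMCAO sample among the early libraries, and the 3 early sham samples were also the highest of their group for Klf4, at 657.5 to 711.6 CPM. Of 24 groups of values examined in this way 1 stood out, and about 1.2 are expected by chance, since chance picks about 1 in 20 such groups.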

How the results depend on the processing

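The factors called numbered 0 under each alternative, with 0 to 2 at an unadjusted p under 0.05. Those 2 were Cdx1 and Klf4 with the replicate block, where 2468 of all genes passed that limit. Gata4 passed it with library size only (0.54, limma-voom unadjusted p = 0.026, adjusted p = 0.64), where 1126 genes did. With 1 sample left out, Cdx2 passed without sham replicate 4 and Cdx1 without sham replicate 6 or 7, and 876 to 2138 genes passed. The count of genes called over all genes, 0 on group alone, was 16 with the library set term, 47 with 4 library blocks, 20 by edgeR with the library set term, 70 by DESeq2, 3 with library size only, 18 with sample quality weights, and 0 to 17 when 1 sample was left out (5 without sham replicate 7, 8 without pMCAO replicate 1 and 17 without pMCAO replicate 3). The cause was not tested. Library size only moved the median log2 fold change of all genes to 0.35, and relative to it Gata4 was at 0.20, Klf4 at -0.21, Hnf4a at -0.0086 and Gata6 at -0.040.

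Hnf4a changed sign to -0.14 with sample quality weights and, leaving out 1 sample, ranged from -0.18 to 0.17 (-0.0042 without sham replicate 4, -0.035 without 6, -0.063 without 7). Gata6 was -0.0019 by edgeR, -0.020 by DESeq2, -0.025 with sample quality weights and -0.054 to 0.12 with 1 sample left out (-0.025 without sham replicate 4, -0.048 without 6, -0.048 without 7, -0.054 without pMCAO replicate 1 and -0.025 without 3). Klf4 was 0.0033 with the library set term and 0.14 with library size only. With 1 sample left out the log2 ratio differences ran from -0.57 to 0.039 for Hnf4a over Hnf4g (0.039 without pMCAO replicate 3), 0.28 to 0.63 for Cdx1 over Cdx2, 0.17 to 0.34 for Gata4 over Gata6 and -0.65 to -0.29 for Klf4 over Klf5. Cdx1 over Cdx2 was -0.040 in the later libraries alone.

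The replicate numbers 1 to 5 are shared by the groups, but the samples of a number did not deviate together (r of 0.398, -0.239, -0.163, 0.163 and 0.082), and 1 of 5 pMCAO samples was closest to the sham sample of its own number. As a replicate block these numbers gave 243 genes called over all genes. They included 1 in the list of crypt and secretory factors (Gfi1, 3.83) and 3 among the known targets (Sis 1.27, Fabp2 1.14 and Fabp1 1.34). Sis is also 1 of the 7 villus enterocyte markers, of which Slc28a2 (-1.18) and Nt5e (-1.65) were called in the other direction. Fabp1 is also 1 of the 4 proximal enterocyte markers, and Zg16 (1.6) of the 6 goblet cell markers was called. In that fit Hnf4a was at -0.17, Gata6 at -0.15, Cdx1 at 1.00 (unadjusted p = 0.0084, adjusted p = 0.14, limma-voom) and Klf4 at -0.43 (unadjusted p = 0.038, adjusted p = 0.26).

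With 7 and 5 samples the 95% intervals of the factors were wide, with upper ends of the log2 fold change from 0.37 for Klf4 to 1.27 for Cdx1. Depth limits Cdx1 most, at 23 counts in 1 sham sample.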
